A study of Homo sapiens with 29 samples.

Results

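Members of the BCL2 family were followed in HepG2 cells, a human liver cancer cell line, grown with or without CCL. Every probe set that the array's probe table names MCL1, BCL2L1, BAK1 or BMF was taken, which gave 5 probe sets of 4 genes among 16098 named probe sets of 14884 genes. MCL1, BCL2L1 and BAK1 had 1 probe set each, and BMF had a brighter (16807324) and a dimmer one (16799423). RNA of CCL-treated cells went onto 13 Affymetrix arrays and that of untreated cells onto 16. The series title names the herb Cratoxylum cochinchinense Lour, and CCL here is the label of that treatment, not a chemokine. CCL-treated cells were sampled at 6 h (n = 3), 12 h (n = 3), 18 h (n = 3), 24 h (n = 2) and 48 h (n = 2). Untreated cells were sampled at 0 h (n = 2), 6 h (n = 3), 12 h (n = 3), 18 h (n = 2), 24 h (n = 3) and 48 h (n = 3). Each array is labelled as set 1, 2 or 3. The CCL groups at 24 h and 48 h hold no set 3 array, and the untreated groups at 0 h and 18 h hold no set 2 array. The labels used here name no dose and no vehicle, so CCL and its solvent or handling cannot be told apart. Nor do they state whether replicate arrays stem from independent cultures, and the p-values therefore reflect array-to-array spread alone.

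Proteins of the BCL2 family decide whether the outer mitochondrial membrane is opened during apoptosis. Anti-apoptotic members such as MCL1 and BCL-XL (the long product of BCL2L1) hold the pore-forming effectors BAK (BAK1) and BAX in check, and BH3-only proteins such as BMF bind the anti-apoptotic members and relieve that block. MCL1 is a short-lived protein on which hepatocytes are known to depend, together with BCL-XL. The arrays give RNA levels only, and 1 value per probe set does not tell the long from the short isoforms of MCL1 and BCL2L1, which act in opposite directions.

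The genes lie on 4 chromosomes of GRCh38.p14 in the RefSeq annotation: MCL1 at chr1:150574558-150579610, BAK1 at chr6:33572552-33580276, BMF at chr15:40087890-40108879 and BCL2L1 at chr20:31664452-31723963. RefSeq promoter windows of GRCh38.p14 were matched by gene ID for 3 of the 4 genes. MCL1 had no entry. Because BCL2L1, BAK1 and BMF all rose with CCL (below), the 250 bases before the 5′-most start of each are shown for comparison, 5′ to 3′ on the minus strand, at chr20:31723964-31724213, chr6:33580277-33580526 and chr15:40108880-40109129 in that order. Capitals mark matches to the motifs searched.
BCL2L1: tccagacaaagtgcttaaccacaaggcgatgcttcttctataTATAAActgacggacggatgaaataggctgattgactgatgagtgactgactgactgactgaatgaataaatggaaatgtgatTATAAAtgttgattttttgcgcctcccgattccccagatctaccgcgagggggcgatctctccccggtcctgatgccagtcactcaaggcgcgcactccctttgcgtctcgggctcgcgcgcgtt
BAK1: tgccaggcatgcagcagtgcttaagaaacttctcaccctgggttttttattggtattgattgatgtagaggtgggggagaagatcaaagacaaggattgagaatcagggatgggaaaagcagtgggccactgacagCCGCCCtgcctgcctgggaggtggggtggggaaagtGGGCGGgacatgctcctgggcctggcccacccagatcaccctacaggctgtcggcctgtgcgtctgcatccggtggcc
BMF: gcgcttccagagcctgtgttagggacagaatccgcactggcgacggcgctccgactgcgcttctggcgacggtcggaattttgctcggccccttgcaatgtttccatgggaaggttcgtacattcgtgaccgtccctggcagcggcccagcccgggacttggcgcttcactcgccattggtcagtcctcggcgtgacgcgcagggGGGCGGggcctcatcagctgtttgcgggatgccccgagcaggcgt
Motifs were searched on both strands: CRE (TGACGTCA), AP-1 (TGANTCA), ETS (CCGGAAGT), E-box (CACGTG), GC box (GGGCGG) and the core promoter letters TATAAA. The BCL2L1 window held 2 TATAAA matches, 208 and 125 bases before the start, and its GC content was 50%. The BAK1 window held 2 GC boxes, 1 on each strand, 114 and 78 bases before the start, with a GC content of 58%. The BMF window held 1 GC box, 45 bases before the start, with a GC content of 65.2%. No motif was shared by all 3 windows, and none of these matches overlapped another. Of all 35116 promoter windows of this length, 42.6% held a GC box, 10.7% TATAAA, 6.57% AP-1, 6.34% the E-box, 3.42% ETS and 1.65% CRE, and their median GC content was 58%. A second RefSeq start of BMF and of BCL2L1 had no match. A match is a description of letters, not of a bound site.

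MCL1, an anti-apoptotic member, rose with CCL and had the largest log2 fold change of the 4 genes in the mean of the 5 times, a ranking that was not tested. At 24 h the values of BAK1 and BMF, and at 48 h that of BCL2L1, were above that of MCL1. Over the 5 times its log2 level was higher by 0.90 ± 0.10 (SE), a 1.87-fold rise. The rise was called at 6 h, 12 h, 18 h and 24 h and was not called at 48 h. Values below are deposited log2 expression, a difference is called where the limma adjusted p over all 6866 tested probe sets was under 0.05, and the level of 1 probe set is not read as above or below that of another, since probe sets differ in brightness. In bulk RNA, fewer cells that express a gene and less RNA per cell cannot be told apart.

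**Figure D1:**
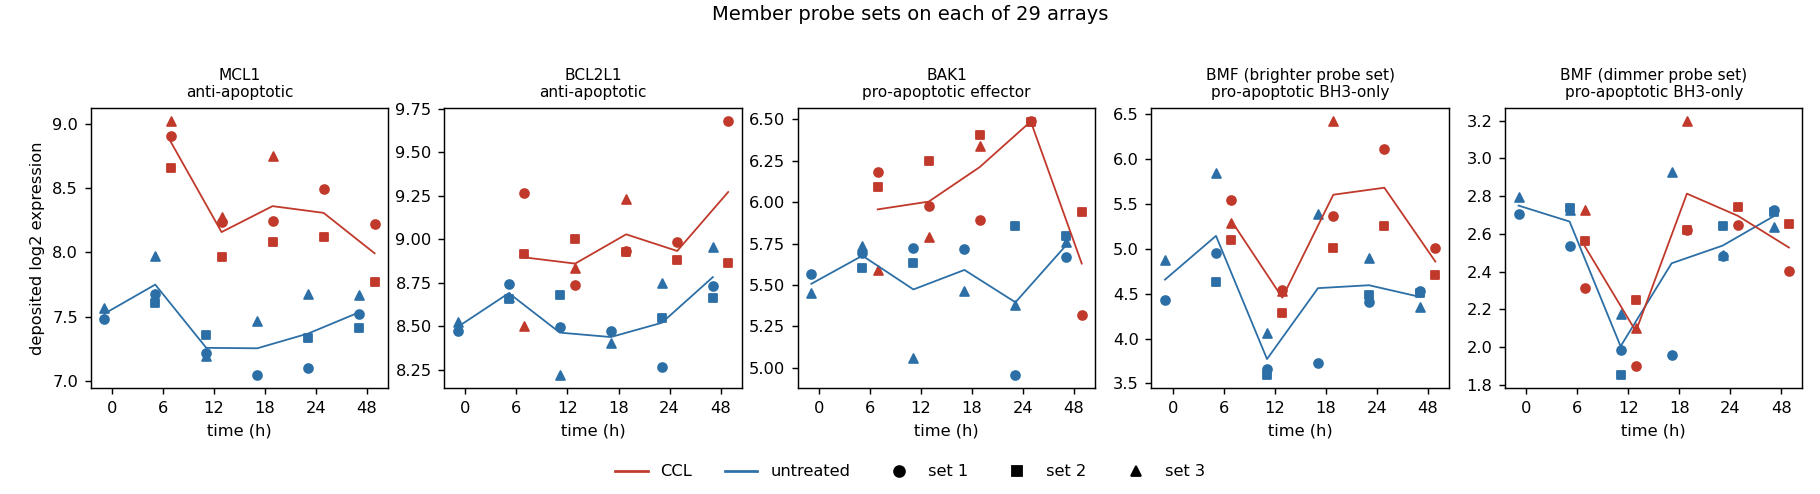
Deposited log2 expression (y axis) of the 5 member probe sets on each of 29 arrays by time in hours (x axis, evenly spaced categories), with CCL-treated arrays in red, untreated arrays in blue, the marker shape for the set and lines through group means. MCL1 of CCL-treated cells lies above the untreated arrays of the same time at all 5 times, and the dimmer BMF probe set stays below 3.21 on every array.

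MCL1 read 7.48 and 7.56 at 0 h. At 6 h the untreated arrays of sets 1, 2 and 3 read 7.68, 7.61 and 7.97, and the CCL arrays read 8.91, 8.66 and 9.03. These CCL arrays include the highest MCL1 value of all 29. At 12 h untreated arrays read 7.22, 7.36 and 7.20, and CCL arrays 8.24, 7.96 and 8.27. At 18 h untreated sets 1 and 3 read 7.04 and 7.46, and CCL arrays 8.25, 8.08 and 8.75. The arms were separate by 0.69 at 6 h, 0.60 at 12 h and 0.61 at 18 h, taken from the lowest CCL array to the highest untreated one. At 24 h untreated arrays read 7.10, 7.33 and 7.67, and CCL sets 1 and 2 read 8.49 and 8.12. At 48 h untreated arrays read 7.52, 7.41 and 7.67, and CCL sets 1 and 2 read 8.22 and 7.77. The gap was 0.45 at 24 h and 0.10 at 48 h, so no time had overlapping arms, although the 48 h arms nearly met.

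Such separation was common at some times. All CCL arrays lay above all untreated arrays for 6.34% of the tested probe sets at 6 h, 12.2% at 12 h, 32.6% at 18 h, 14.1% at 24 h and 10.4% at 48 h. MCL1 was separate at all 5 times in the deposited values and after quantile normalization of the 29 arrays.

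The MCL1 log2 fold change was 1.11 ± 0.21 at 6 h (2.16-fold, adjusted p = 0.0107), when 0.35% of tested probe sets were called higher. At 12 h it was 0.90 ± 0.21 (adjusted p = 0.0239), with 1.06% called higher. At 18 h it was 1.11 ± 0.23 (adjusted p = 0.00336), with 11.9% called higher. The 18 h comparison carries an upward shift of all tested probe sets, whose median log2 fold change was 0.41. The MCL1 change after quantile normalization was 0.74 (adjusted p = 0.0325). At 24 h the MCL1 change was 0.94 ± 0.23 (adjusted p = 0.0240), with 2.49% called higher. At 48 h it was 0.46 ± 0.23 (95% interval -0.02 to 0.94, adjusted p = 0.211), with 1.38% called higher. After quantile normalization the 48 h change was 0.63 (adjusted p = 0.0429), and the median of all tested probe sets in the deposited values was -0.26 there. The 48 h change rested on the CCL arrays: without CCL set 1 it was 0.23 and without CCL set 2 it was 0.68. Each of these fits kept a lone CCL array at 48 h. Over the 5 times 13.5% of probe sets were called higher and 10.6% lower, and MCL1 had an adjusted p of 2.12e-07 and place 144 of 6866 by log2 fold change.

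The MCL1 calls at single times were sensitive to single arrays, although the change stayed positive. At 6 h MCL1 missed the threshold when untreated set 1 (adjusted p = 0.0797), untreated set 2 (0.0979) or CCL set 3 (0.0939) was left out. The call was lost at 12 h without any 1 of 5 of the 6 arrays (0.0624 to 0.133). At 24 h it was lost without untreated set 1 (0.0950) or untreated set 2 (0.0750). The MCL1 change was 0.90 at 18 h without untreated set 1 and 0.75 at 24 h without CCL set 1, each with a lone array left in that group. The log2 fold change without 1 array lay between 0.75 and 1.32 at these 4 times, and the call over the 5 times held without each of 27 arrays in turn. With each array shifted to 1 common median, MCL1 at 18 h was 0.54 and not called (adjusted p = 0.193), and on the compared arrays alone neither 18 h (0.205) nor 24 h (0.430) was called.

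BCL2L1, which encodes BCL-XL, rose with CCL by 0.42 ± 0.10 over the 5 times (95% interval 0.21 to 0.63, 1.34-fold, adjusted p = 0.00373). It passed at no single time, where its log2 fold change ran from 0.21 at 6 h to 0.59 at 18 h. BCL2L1 read 8.47 and 8.52 at 0 h. At 6 h untreated sets 1, 2 and 3 read 8.74, 8.66 and 8.67, and CCL arrays 9.27, 8.92 and 8.5. CCL set 3 lay below all untreated ones, so the arms overlapped at 6 h. At 12 h untreated arrays read 8.49, 8.68 and 8.22, and CCL arrays 8.74, 9.0 and 8.84. At 18 h untreated sets 1 and 3 read 8.47 and 8.40, and CCL arrays 8.93, 8.93 and 9.23. The arms did not overlap at 12 h and 18 h, but at 18 h they did after quantile normalization. At 24 h untreated arrays read 8.26, 8.55 and 8.75, and CCL sets 1 and 2 read 8.99 and 8.88. At 48 h untreated arrays read 8.73, 8.66 and 8.95, and CCL sets 1 and 2 read 9.68 and 8.86. The arms were separate at 24 h by 0.13 and overlapped at 48 h, where CCL set 1 held the highest BCL2L1 value of all 29 and CCL set 2 lay within the untreated range.

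The log2 fold change of BCL2L1 was 0.21 ± 0.21 at 6 h (adjusted p = 0.979) and 0.40 ± 0.21 at 12 h (0.517). At 18 h it was 0.59 ± 0.24 (0.0934), which became 0.26 after quantile normalization and 0.0195 after the shift of each array to 1 common median. At 24 h it was 0.41 ± 0.24 (0.462). At 48 h it was 0.49 ± 0.24 (0.197), and the value rested on the CCL arrays. It was 0.90 without CCL set 2 and 0.08 without CCL set 1, each with a lone CCL array left.

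BAK1, a pore-forming effector, also rose over the 5 times, by 0.48 ± 0.11 (95% interval 0.25 to 0.71, 1.40-fold, adjusted p = 0.00251). At single times it was called only at 24 h, with a log2 fold change of 1.09 ± 0.26 (2.13-fold, adjusted p = 0.0193). BAK1 read 5.56 and 5.45 at 0 h. At 6 h untreated sets 1, 2 and 3 read 5.69, 5.60 and 5.74, and CCL arrays 6.18, 6.09 and 5.59. CCL sets 1 and 2 were above all untreated arrays and CCL set 3 was below them. At 12 h untreated arrays read 5.72, 5.63 and 5.06, and CCL arrays 5.98, 6.25 and 5.79. At 18 h untreated sets 1 and 3 read 5.72 and 5.46, and CCL arrays 5.89, 6.40 and 6.34. The arms were separate by 0.06 at 12 h and 0.17 at 18 h, and they overlapped at 18 h after quantile normalization. At 24 h untreated arrays read 4.95, 5.85 and 5.38, and CCL sets 1 and 2 read 6.49 and 6.48. At 48 h untreated arrays read 5.67, 5.80 and 5.76, and CCL sets 1 and 2 read 5.32 and 5.94. The 24 h gap was 0.63, with the CCL arrays almost equal, whereas at 48 h the CCL arrays lay on either side of the untreated ones.

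The log2 fold change of BAK1 was 0.28 ± 0.23 at 6 h (adjusted p = 0.934), 0.53 ± 0.23 at 12 h (0.375) and 0.62 ± 0.26 at 18 h (0.108). The 18 h value was 0.22 after quantile normalization and 0.0505 after the median shift. At 48 h it was -0.11 ± 0.26 (0.816) and 0.12 after quantile normalization, so its direction at 48 h turned with the scaling. BAK1 at 24 h missed the threshold when untreated set 1 was left out (0.87, adjusted p = 0.0987) and on the compared arrays alone (0.287). Without CCL set 1 it was 1.09 and without CCL set 2 it was 1.1, each with a lone CCL array left. With array weights the effect over the 5 times was 0.37 and not called (adjusted p = 0.0636).

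BMF, a BH3-only member, rose on its brighter probe set by 0.67 ± 0.17 over the 5 times (95% interval 0.32 to 1.03, 1.60-fold, adjusted p = 0.00524). It passed at no single time in the main fit (deposited values, all 29 arrays, no weights and no set block). At 12 h it was called with array weights (adjusted p = 0.00111) and on the compared arrays alone (0.0332). Other alternatives called it at 18 h or 24 h (below). It varied most between arrays, with an SD of 1.17 among the untreated arrays at 18 h and 0.74 among the CCL arrays at 18 h. It was above log2 5, the filter set for testing, on 11 of 29 arrays. The only untreated arrays among these were set 3 at 6 h and at 18 h, and the rest were CCL arrays. Most untreated values thus lay below the filter. The brighter probe set read 4.43 and 4.88 at 0 h. At 6 h untreated sets 1, 2 and 3 read 4.96, 4.63 and 5.84, and CCL arrays 5.55, 5.10 and 5.29. Untreated set 3 was the highest of the 6, so the arms overlapped. At 12 h untreated arrays read 3.66, 3.59 and 4.07, and CCL arrays 4.54, 4.29 and 4.53. At 18 h untreated sets 1 and 3 read 3.73 and 5.39, and CCL arrays 5.37, 5.01 and 6.43. All 12 h arrays were low and the arms separate, while at 18 h they overlapped, with set 3 high in both arms. At 24 h untreated arrays read 4.41, 4.48 and 4.89, and CCL sets 1 and 2 read 6.11 and 5.25. At 48 h untreated arrays read 4.53, 4.51 and 4.35, and CCL sets 1 and 2 read 5.01 and 4.71. The arms were separate at 24 h by 0.36 and at 48 h by 0.18.

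The log2 fold change of the brighter BMF probe set was 0.17 ± 0.36 at 6 h (adjusted p = 0.998), 0.68 ± 0.36 at 12 h (0.492) and 1.04 ± 0.40 at 18 h (0.0807). The 18 h value became 0.57 after quantile normalization and 0.47 after the median shift. At 24 h it was 1.09 ± 0.40 (0.164), and 1.17 after quantile normalization, where it was called (adjusted p = 0.0457). At 48 h it was 0.39 ± 0.40 (0.553). At 18 h single arrays set the value: it was 1.87 without untreated set 3 and 0.21 without untreated set 1, each with a lone untreated array left. Without CCL set 2 it was 1.34 (adjusted p = 0.0375). Without 6 arrays picked by their medians, which left a lone untreated array at 18 h, the 18 h value turned to -0.20. The effect over the 5 times was then 0.27.

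The dimmer BMF probe set read from 1.85 to 3.20 (median 2.62) and was above log2 5 on none of the 29 arrays, so it was not tested. Its difference over the 5 times was 0.06, with a 95% interval of -0.13 to 0.26. Of 12 same-set, same-time pairs it was higher with CCL in 6, against 11 for the brighter probe set. It lay below the median of its array on all 29 arrays, near the low end of the scale, where a rise of the RNA could go unread. The difference between both probe sets was not tested, and the BMF rise is that of the brighter one.

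**Figure D2:**
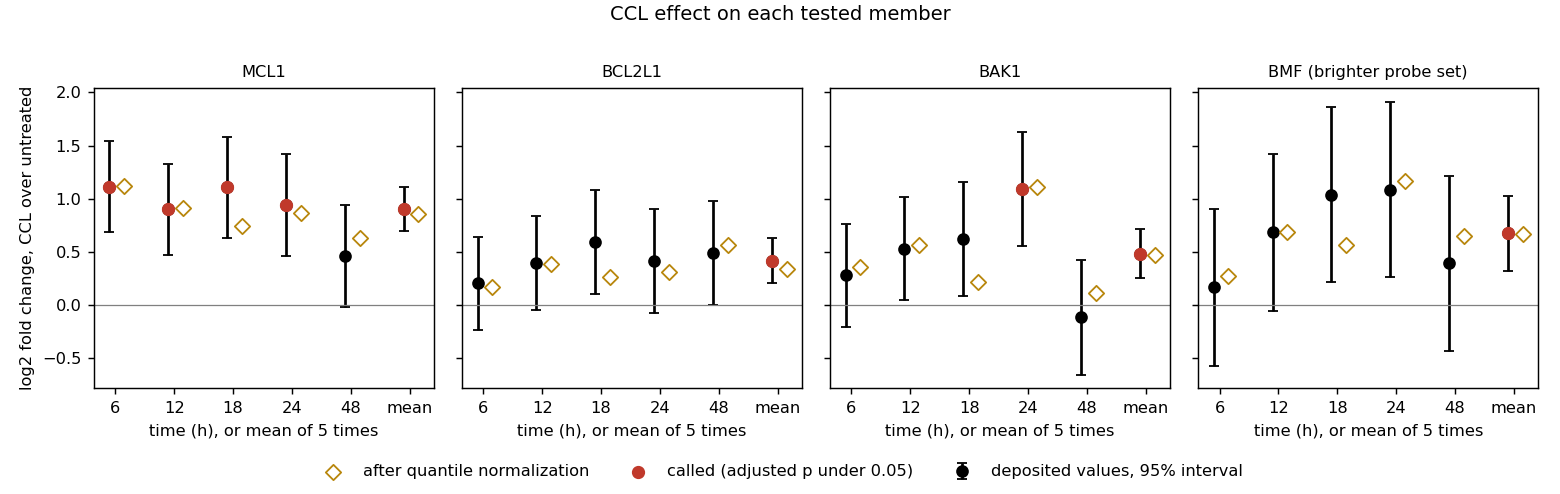
Log2 fold change of CCL over untreated cells (y axis) for each tested member by time in hours and as the mean of 5 times (x axis, evenly spaced categories), with 95% intervals from the limma fit, called values in red and values after quantile normalization as open diamonds. MCL1 is called at 6 h to 24 h, BAK1 at 24 h only, and BCL2L1 and the brighter BMF probe set in the mean only.

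The CCL array was the higher one in most pairs of arrays with the same set and time. These are the same arrays as in the fit, and pairing by set was not established. The share of all tested probe sets with such counts was not computed, so the counts are a description. MCL1 was higher with CCL in 12 of 12 pairs, with a median difference of 1.05 and a range of 0.36 to 1.39. BCL2L1 was higher in 11 of 12 (median 0.39), BAK1 in 10 of 12 (median 0.49) and the brighter BMF probe set in 11 of 12 (median 0.65). Within sets, MCL1 differed by 1.11 in set 1, 0.70 in set 2 and 1.14 in set 3. BCL2L1 differed by 0.58, 0.28 and 0.43 in sets 1 to 3, and BAK1 by 0.42, 0.47 and 0.49. BMF had the widest spread between sets, at 1.06, 0.53 and 0.32. These are means over 5 times in set 1, 4 in set 2 and 3 in set 3, so differences between sets also hold differences between times. All 4 genes were higher with CCL in the mean of each set. In set 3 at 6 h, however, BCL2L1 (-0.17), BAK1 (-0.14) and the brighter BMF probe set (-0.55) were lower with CCL. BAK1 was also lower in set 1 at 48 h (-0.35), but was at 0.03 there after quantile normalization. In set 1 at 18 h, quantile normalization turned BAK1 from 0.17 to -0.45 and took BCL2L1 from 0.455 to 0.016. The counts of pairs higher with CCL stayed at 12, 11, 10 and 11 for MCL1, BCL2L1, BAK1 and BMF, although single pairs turned.

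Ordered by level, the 5 CCL groups of MCL1 stood above all 6 untreated groups. The lowest was untreated 18 h (7.25 ± 0.30, SD, n = 2) and the highest CCL 6 h (8.86 ± 0.19, SD, n = 3), and the largest step, 0.50, lay between CCL 18 h and CCL 6 h. In 8 of the 10 steps the gap was below the larger SD of both neighbours. The 5 CCL groups of BCL2L1 also stood highest, from untreated 18 h (8.44 ± 0.05, SD, n = 2) to CCL 48 h (9.27 ± 0.58, SD, n = 2), but all 10 steps were below the larger SD. BAK1 ran from untreated 24 h (5.40 ± 0.45, SD, n = 3) to CCL 24 h (6.49 ± 0.01, SD, n = 2), with 4 CCL groups among the top 5 and all 10 steps below the larger SD. The brighter BMF probe set ran from untreated 12 h (3.77 ± 0.26, SD, n = 3) to CCL 24 h (5.68 ± 0.61, SD, n = 2). Untreated 6 h (5.14 ± 0.62, SD, n = 3) stood above CCL 48 h (4.86 ± 0.21, SD, n = 2) and CCL 12 h (4.46 ± 0.14, SD, n = 3), and 9 of the 10 steps were below the larger SD.

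Untreated cells gave no called change of a member from 0 h. In 20 limma tests (4 probe sets at 5 times) the log2 differences lay between -0.88 and 0.49, none was called and 1 had an unadjusted p under 0.05. That was BMF at 12 h, at -0.88 (95% interval -1.71 to -0.06, adjusted p = 0.349) and -0.27 after quantile normalization. The 12 h arrays of both arms had low medians, 2.51 to 2.54, against 2.98 and 3.07 at 0 h. The background share of probe sets called was 0% at 6 h, 0.218% at 12 h and 0% at 18 h, 24 h and 48 h. These comparisons share the 0 h arrays.

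No member was called in the F-test for a change of the CCL effect with time. BAK1 had an F of 2.91 (adjusted p = 0.457), MCL1 1.37 (0.548), BMF 1.09 (0.622) and BCL2L1 0.40 (0.886), and 0.0146% of tested probe sets were called. Among 16 limma tests of a later effect against that at 6 h, 0 were called and 2 had an unadjusted p under 0.05. The BAK1 effect at 24 h exceeded that at 6 h by 0.81 (95% interval 0.09 to 1.54, adjusted p = 0.978), and the MCL1 effect at 48 h was below that at 6 h, by -0.66 (95% interval -1.30 to -0.01, adjusted p = 0.864). The background share was 0% at 12 h, 18 h and 24 h and 0.0146% at 48 h. The calls of MCL1 at 4 times and of BAK1 at 24 h therefore do not show that their effects differed from those at the other times.

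All 4 genes were called higher over the 5 times, anti-apoptotic and pro-apoptotic alike, where 13.5% of all tested probe sets were called higher. The 4 genes were chosen with earlier results of these data known, so this count is not a result about the family. Differences of log2 values within an array are given for each arm. Only their change between arms can be read, since their size holds the brightness of both probe sets. At 6 h MCL1 minus BAK1 was 2.91 ± 0.46 (SD, n = 3) with CCL and 2.07 ± 0.14 (SD, n = 3) without, and the arms did not overlap. MCL1 minus BMF at 6 h was 3.55 ± 0.19 (SD, n = 3) with CCL and 2.61 ± 0.43 (SD, n = 3) without, again with no overlap.

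At 24 h MCL1 minus BAK1 was lower with CCL by -0.15 and MCL1 minus BMF by -0.15, with overlapping arms. BCL2L1 minus BAK1 was 2.45 ± 0.07 (SD, n = 2) with CCL and 3.12 ± 0.37 (SD, n = 3) without. BCL2L1 minus BMF was 3.25 ± 0.53 (SD, n = 2) with CCL and 3.93 ± 0.12 (SD, n = 3) without. Both were lower with CCL at 24 h with no overlap. In all, the arms did not overlap in 4 of the 20 combinations of a gene pair and a time, and nothing is read from this count. At the remaining times the arms overlapped in all 4 differences, with changes from -0.45 to 0.60. At 48 h BCL2L1 minus BAK1 was 4.37 on CCL set 1 and 2.92 on CCL set 2. These differences between probe sets are descriptions, with no test.

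**Figure D3:**
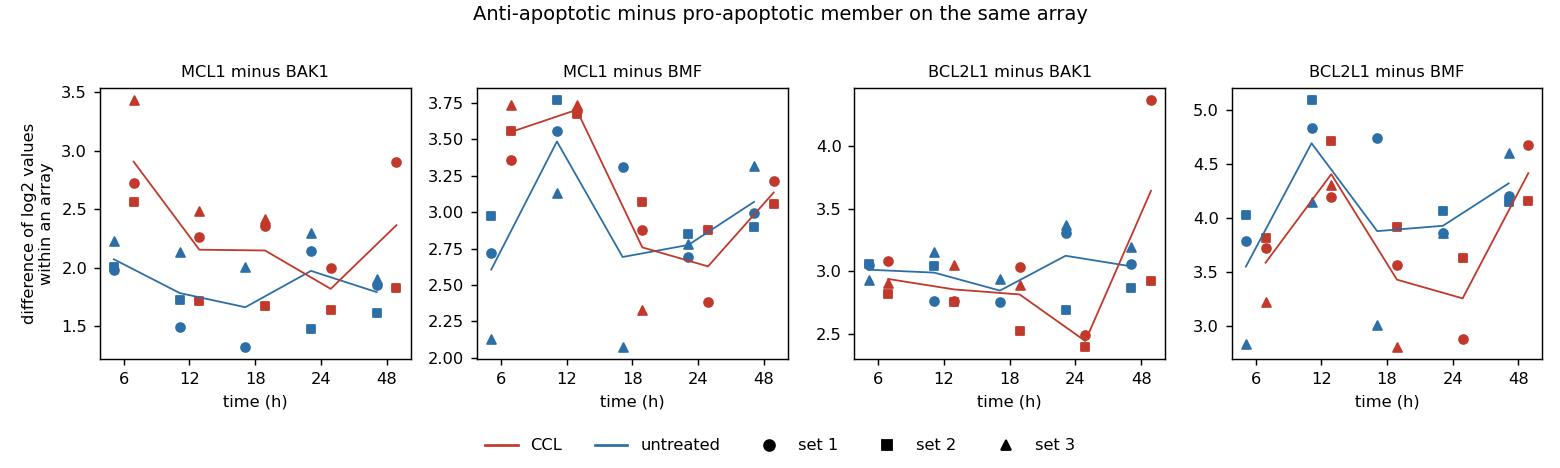
Difference of deposited log2 values between an anti-apoptotic and a pro-apoptotic member on the same array (y axis) by time in hours (x axis, evenly spaced categories), with CCL in red, untreated in blue, the marker shape for the set and lines through group means. Both MCL1 differences are higher with CCL at 6 h without overlap, and both BCL2L1 differences are lower with CCL at 24 h without overlap.

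Across the 29 arrays, after subtraction of each array's median, MCL1 correlated with BCL2L1 (Pearson's r = 0.65), BAK1 (0.60) and BMF (0.62), and BCL2L1 with BAK1 (0.66). BMF correlated less with BCL2L1 (0.20) and BAK1 (0.23). The arrays share their arm and time, so these values describe the data. The 3 tested probe sets most like MCL1 by the same measure were PRAG1 (0.95), EPHA2 (0.94), a receptor tyrosine kinase, and SPRY4 (0.93), a feedback inhibitor of growth factor signalling. Over the 5 times PRAG1 was higher by 1.20, EPHA2 by 1.05 and SPRY4 by 1.39. Those most like BCL2L1 were IFITM2 (0.90), EXOSC5 (0.90) and ARHGDIA (0.90), and those most like BAK1 were KHNYN (0.91), XPO6 (0.90) and IPO4 (0.89). BMF had the weakest likeness, with ICOSLG (0.76), GLRX (0.71) and ZNF516 (0.70).

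Of 24 family genes listed, 21 had a named probe set and 14 were tested over the 5 times. Of those 14, 5 were called higher and 0 lower, where 13.5% of all tested probe sets were called higher and 10.6% lower. Outside the 4 members, which were picked with earlier results known, 1 of 10 was called higher, a share near that of all tested probe sets. The only anti-apoptotic genes tested were MCL1 and BCL2L1 themselves, with a median log2 fold change of 0.66, and the median over all tested probe sets was 0.02. BCL2, BCL2A1 and BCL2L10 lay below the filter, with mean levels of 2.71, 2.68 and 2.83. Among effectors, 1 of 3 was called (median 0.20). BAX, the other main effector, lay near 0 (95% interval -0.20 to 0.19, adjusted p = 0.998), and BOK at 0.20 ± 0.13 (adjusted p = 0.275).

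Among BH3-only genes 2 of 5 tested were called, with a median of 0.18. The other called gene was BBC3, which encodes PUMA, at 0.43 ± 0.14 (adjusted p = 0.0266). At 18 h BBC3 was higher by 1.15 ± 0.32 (adjusted p = 0.0247), but by 0.62 after quantile normalization (adjusted p = 0.231). It was higher by 1.09 without CCL set 3 (adjusted p = 0.109) and by 0.44 without untreated set 1, which left a lone untreated array. The BBC3 call over the 5 times was lost without untreated 18 h set 1 (adjusted p = 0.0915), CCL 24 h set 2 (0.0724) or CCL 48 h set 1 (0.0803). BID was at 0.18 (adjusted p = 0.219), BAD at 0.14 (0.346) and BCL2L11, which encodes BIM, at -0.33 ± 0.17 (0.162), where the call appeared after quantile normalization (-0.34, adjusted p = 0.0267). BIK and PMAIP1 lay below the filter, with mean levels of 2.80 and 3.54. Of the other members 0 of 4 tested were called (median -0.12): BNIP3L was at -0.25 (adjusted p = 0.165, and 0.0444 after quantile normalization), BCL2L12 at -0.16 (0.386), BNIP3 at -0.08 (0.655) and BCL2L13 at 0.03 (0.922). BCL2L14 and BCL2L15 lay below the filter.

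**Figure D4:**
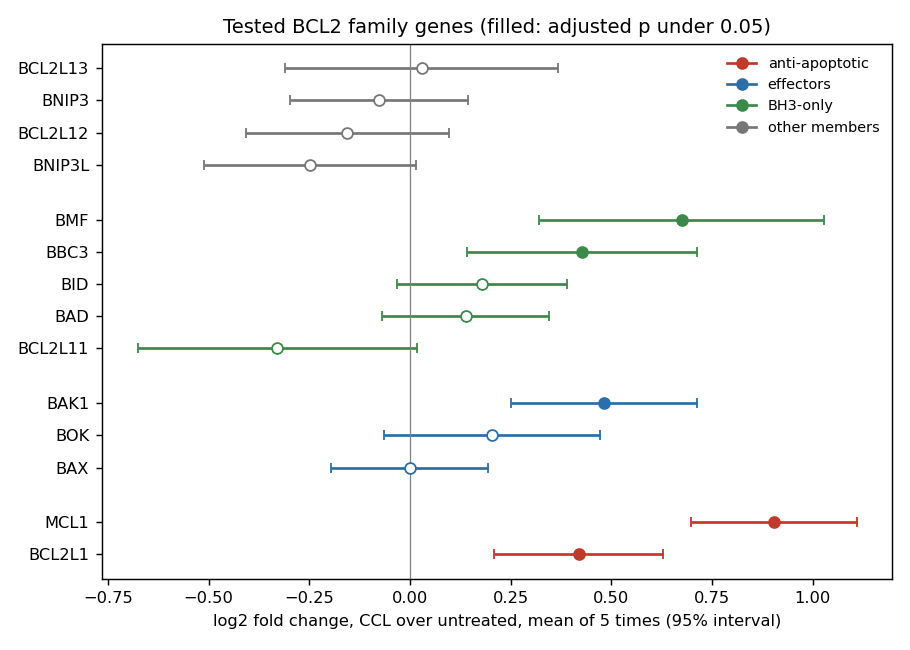
Log2 fold change of CCL over untreated cells as the mean of 5 times (x axis) for the 14 tested BCL2 family genes (y axis), grouped by role, with 95% intervals from the limma fit and filled points for adjusted p under 0.05. MCL1, BCL2L1, BAK1, BMF and BBC3 are the 5 filled points, while the interval of BAX, -0.20 to 0.19, is centred near 0.

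Genes that act around the family were called in a few cases, and nothing is read from the number of these calls. Over the 5 times 13.5% of all tested probe sets were called higher and 10.6% lower. At 18 h 11.9% were called higher, and at 48 h 4.82% were called lower. Of 8 genes listed for MCL1 turnover, 4 had a named probe set and 3 were tested. None of these 3 was called (USP13 at -0.02, BTRC at -0.10 and MARCHF5 at 0.04). Among 4 tested caspase inhibitors and antagonists, BIRC5 (survivin), a mitotic protein and caspase inhibitor, fell by 0.72 on the log2 scale (adjusted p = 0.00144). At 48 h its difference was -1.35 (adjusted p = 0.0318), but -0.61 without CCL set 1, which left a lone CCL array. Each of the 3 untreated arrays left out in turn ended that call (0.0531 to 0.102). Among 5 tested mitochondrial outer membrane partners, the channel gene VDAC3 fell by 0.30 (adjusted p = 0.0132). VDAC2, which holds BAK at the membrane, was higher by 0.22 (adjusted p = 0.0494), a call lost after quantile normalization (0.0655) and without 20 of 27 arrays left out in turn. Of 3 tested death receptor genes, from a list of 9, none was called over the 5 times. CFLAR was higher at 18 h by 0.99 (adjusted p = 0.0352), but by 0.55 after quantile normalization (0.0978). It was higher by 0.36 without untreated set 1, which left a lone untreated array. Its 18 h call was also lost without CCL set 1 (0.0545) or CCL set 3 (0.182). APAF1, the only tested gene of 9 on the apoptosome and caspase list, was at -0.43 (adjusted p = 0.0973, and 0.0398 after quantile normalization). Neither gene of the dynein light chain list, partners of BMF at the cytoskeleton, had a named probe set.

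Hepatocyte markers were high on all arrays, as the label of a liver line has it. The mean log2 level of 8 hepatocyte markers was 9.98 to 10.4 with CCL and 9.93 to 10.7 without, and 2 of 8 were called lower with CCL over the 5 times, beside 10.6% of all tested probe sets, TTR by -0.43 (adjusted p = 0.0202) and APOA1 by -0.39 (0.0410). The APOA1 call was lost without any 1 of 16 of the 27 arrays (0.0513 to 0.106), and the TTR call without untreated 18 h set 3 (0.0616). The mean level of the 2 of 6 fibroblast markers with a probe set was at most 2.47 on any array. That of the 3 of 4 endothelial markers with a probe set was at most 3.20. The only leukocyte marker with a probe set, LYZ, read 10.25 to 10.95 with CCL and 10.38 to 10.85 without, a mean difference of 0.01 over the 5 times. Array medians ran from 2.29 (untreated 18 h set 1) to 3.39 (CCL 18 h set 3). Values after quantile normalization or a median shift, and without the arrays picked by their medians, are given beside the members they move. With 2 or 3 arrays per group, precision is limited by array number.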

How the data were processed

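The deposited log2 expression values (53617 probe sets, 29 arrays) entered unchanged. The submitters' processing notes list RMA and Affymetrix Expression Console 1.1 for them. Medians vary between arrays, and the sources used here do not say which arrays shared an RMA run. The probe table of the array gave symbols for 16098 probe sets, all found in RefSeq (GRCh38.p14) by gene ID. A named probe set was tested if it exceeded log2 5 on 2 or more arrays, which kept 6866.

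A linear model with 1 mean for each of 11 groups was fitted with limma 3.58.1 in R 4.3.3 (lmFit, eBayes) to all 29 arrays, and checked on simulated data. Two-sided p-values were adjusted per comparison (Benjamini-Hochberg) over these 6866. The comparisons were CCL with time-matched untreated cells, the mean of those 5 differences, an F-test over the times, each later effect against that at 6 h, and untreated cells against 0 h. Errors are standard errors of the fit unless marked SD.

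Alternatives were quantile normalization, a median shift, no filter, 1 probe set per gene, array weights, the compared arrays alone, set as a fixed or random block, and leaving out arrays. Where this left a lone array in a group, its spread was taken from the other groups. Set numbers were checked for pairing: residuals of same-set, same-time arrays correlated above 0.1 in 8 of 12 pairs (-0.06 to 0.44), with the own number best in 7 of 12, so pairing was not taken as established.

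The members and the gene lists were chosen with earlier results of these data known. Named are all members, every family gene with a probe set, genes on the other lists called over the 5 times or at a time (up to 5 per list), and the 3 probe sets most correlated with each member over 29 arrays. No detection values were used here.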

Additional observations from a re-analysis of the deposited data

How the results depend on the processing

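Over the 5 times, MCL1 and BCL2L1 kept their calls under all 9 alternatives (log2 fold change 0.71 to 0.96 and 0.25 to 0.42), and all 4 members kept them without each of 27 arrays. The cause of the changes below was not tested, except that fits on the compared arrays use fewer arrays. Left out together were also 6 arrays: untreated 18 h and 24 h set 1, CCL 6 h, 24 h and 48 h set 1, and CCL 18 h set 3. The median of each lay away from that of the rest of its group. The untreated 18 h, CCL 24 h and CCL 48 h groups hold 2 arrays each, so their medians cannot tell which array stands apart. At 24 h the CCL medians were 2.83 (set 1) and 2.97 (set 2). Most of the 6 are set 1 arrays, and set 1 had the largest BMF difference between arms (1.06). The 12 h arrays of both arms, with low medians of 2.51 to 2.54, were kept. In the fit without the 6 arrays, a lone remaining array was assumed to vary like the other groups. Without these 6 arrays BMF was 0.27 over the 5 times (adjusted p = 0.190) and turned to -0.20 at 18 h, MCL1 was no longer called at 18 h (0.70) and 24 h (0.62), nor BAK1 at 24 h (0.87), and BAK1 at 48 h turned to 0.20. BAK1 at 48 h also turned after quantile normalization (0.12) and the median shift (0.053). With array weights, whose estimation stopped before convergence, BAK1 over the 5 times lost its call (0.37, adjusted p = 0.0636), as did MCL1 at 18 h (0.97) and BAK1 at 24 h (0.68), while BMF (0.75), BCL2L1 (0.29) and BAK1 (0.52) were called at 12 h. On the compared arrays alone MCL1 at 18 h (1.11) and 24 h (0.94) and BAK1 at 24 h (1.09) lost their calls and BMF at 12 h (0.68) gained one. The median shift ended the MCL1 call at 18 h (0.54). Quantile normalization added MCL1 at 48 h (0.63) and, with the median shift (1.14), BMF at 24 h (1.17).

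With set as a fixed replicate block BMF was called at 18 h (1.19) and 24 h (1.28), and with a random block likewise (1.14 and 1.22). The replicate block changed no other call of a member against untreated cells. Without 1 array of a group, MCL1 ran from 1.03 to 1.22 at 6 h, 0.84 to 1.00 at 12 h, 0.90 to 1.32 at 18 h and 0.75 to 1.12 at 24 h. BMF at 6 h lay between -0.086 (without untreated set 2) and 0.52, BMF at 18 h between 0.21 and 1.87 and BCL2L1 at 48 h between 0.078 and 0.90. BAK1 lay between 0.87 and 1.32 at 24 h and between -0.42 and 0.20 (without CCL set 1) at 48 h. Members called for untreated cells against 0 h went from 0 to 1 (BMF at 12 h) with array weights and without the 6 arrays. Members called for a later effect against that at 6 h ran from 0 to 1 without 1 array. Family genes called higher went from 5 to 3 with array weights and without the 6 arrays. Family genes called lower went from 0 to 2 after quantile normalization and without the 6 arrays, to 1 with the median shift, and ran from 0 to 1 without 1 array. Of all tested probe sets, 26 were called at 6 h (20 to 304 over the alternatives), 86 at 12 h (63 to 2086), 827 at 18 h (13 to 1628), 200 at 24 h (51 to 526) and 426 at 48 h (0 to 888). No detection values were used, so low values such as those of BMF have no stated background.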

Other observations

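Set 3 held the highest MCL1 value in 8 of the 9 groups that contain it, in both arms. It did so for the brighter BMF probe set in 6 of 9 groups, the dimmer BMF probe set in 5, BCL2L1 in 4 and BAK1 in 1. In untreated cells at 18 h the brighter BMF probe set read 5.39 in set 3 and 3.73 in set 1, and at 6 h 5.84 in set 3 against a mean of 4.79 in the other sets. No set 3 array stands in the CCL groups of 24 h and 48 h. The part of set 3 in the CCL differences was not tested beyond the fits with set as a block.

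The probe sets closest to a member in pattern were picked by their correlation with it over these same 29 arrays. Their CCL differences follow in part from that choice, so no p-value is given for them. PRAG1, EPHA2 and SPRY4, closest to MCL1, were higher over the 5 times by 1.20, 1.05 and 1.39. Those closest to BAK1 had smaller rises, KHNYN of 0.33, XPO6 of 0.27 and IPO4 of 0.28. Of those closest to BMF, GLRX, a glutaredoxin, was higher by 0.86, ZNF516 by 0.53 and ICOSLG by 0.52.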
